A study of Homo sapiens with 6 samples.

Results

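The genes described are 8 core pluripotency factors, POU5F1, SOX2, NANOG, SALL4, UTF1, L1TD1, JARID2 and TERT, chosen by name as factors shared by naive and primed pluripotency. They are 8 of 63677 genes in a table of unnormalized read counts, and all 8 were among the 19434 genes with enough counts to be tested. Gene expression was read by RNA sequencing in 2 human embryonic stem cell lines, Royan H5 (RH5) and Royan H6 (RH6), grown on inactivated mouse embryonic fibroblasts (MEF). There were 4 libraries labelled naive, whose cells had been induced with 2a2iL and were then passaged with trypsin in 2iL medium: 2 of RH6 at passage 10 and 2 of RH5 at passage 17. There were 2 libraries labelled primed, grown in medium with bFGF: 1 of RH6 at passage 20 and 1 of RH5 at passage 16. State and medium changed together and cannot be told apart, while the passage numbers of the states were close in RH5 and far apart in RH6. Nothing in the labels says that the naive duplicates came from separate cultures, so a p-value measures only how much these libraries vary, which may be technical variation.

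The libraries held between 13457979 and 14663982 counts. Levels are given as CPM, a library's counts scaled to a common total (counts per 1e6) after TMM, with scaling factors between 0.964 and 1.03. CPM is not divided by gene length, so levels were compared between libraries for 1 gene and not between genes. Of 8 genes known to mark naive human cells, a list chosen after the data were seen, 4 were higher in every naive library than in both primed ones. The share of all genes for which this holds was not computed, so no conclusion is drawn from this count. DNMT3L, a cofactor of DNA methylation, had 291 to 382 counts against 6 and 8, KLF5 793 to 949 against 179 and 395, SUSD2 96 to 270 against 44 and 86, and DPPA3 33 to 59 against 11 and 17. KLF17 was at 0 in both primed libraries and had 33 counts over the naive ones, with 0 in naive RH6 replicate 1. TFCP2L1 overlapped between the states, and DPPA5 and KHDC3L were at 0 in all 4 naive libraries.

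Pluripotency is held by a small circuit of transcription factors. POU5F1 (OCT4) and SOX2 bind DNA as a pair at neighbouring octamer and SOX motifs, and with NANOG they bind near many of each other's genes and near their own. SALL4 is a zinc finger protein that works with this circuit and recruits the NuRD chromatin complex. JARID2 is an accessory subunit of the polycomb complex PRC2, which methylates histone H3 at silenced developmental genes. UTF1 is a chromatin-bound protein and a classical target of POU5F1 and SOX2, L1TD1 is an RNA-binding protein of stem cells, and TERT is the catalytic subunit of telomerase, which lets stem cell lines keep dividing.

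The 250 bases before the annotated start are shown for NANOG, SOX2 and UTF1, because these genes represent the 3 patterns seen below: a difference in 1 line, a fall in both lines at a high count, and the largest fall. The sequences are from RefSeq in build GRCh38.p14, on the plus strand, at chr12:7789152-7789401 for NANOG, chr3:181711675-181711924 for SOX2 and chr10:133229967-133230216 for UTF1. Capitals mark matches to the octamer core ATGCAAA or the SOX motif CATTGT, searched on both strands.
NANOG: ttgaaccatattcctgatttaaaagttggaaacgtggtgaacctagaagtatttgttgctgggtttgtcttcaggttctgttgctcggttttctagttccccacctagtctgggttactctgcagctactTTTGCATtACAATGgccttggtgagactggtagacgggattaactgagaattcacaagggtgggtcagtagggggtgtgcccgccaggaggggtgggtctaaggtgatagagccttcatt
SOX2: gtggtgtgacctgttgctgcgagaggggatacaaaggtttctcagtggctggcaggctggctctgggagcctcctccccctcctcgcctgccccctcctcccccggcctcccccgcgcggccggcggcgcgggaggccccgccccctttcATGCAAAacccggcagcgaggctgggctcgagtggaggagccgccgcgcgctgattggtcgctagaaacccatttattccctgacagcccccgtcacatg
UTF1: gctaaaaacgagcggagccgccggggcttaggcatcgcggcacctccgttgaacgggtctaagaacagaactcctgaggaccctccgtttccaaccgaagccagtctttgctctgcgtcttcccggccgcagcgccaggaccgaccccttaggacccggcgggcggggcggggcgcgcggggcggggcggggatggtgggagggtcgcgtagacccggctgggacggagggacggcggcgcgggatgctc
In NANOG the octamer core lay on the minus strand 120 to 114 bases before the start and the SOX motif on the same strand at 112 to 107, so that the pair stood 1 base apart. SOX2 held the octamer core on the plus strand, 100 to 94 bases before the start, and UTF1 held neither. Windows were at hand for 6 of the 8 members, 7 windows in all. JARID2 held the SOX motif in its second window, and L1TD1 and TERT held neither. Over all 35116 windows of this length, the octamer core was in 3.94%, the SOX motif in 9.29%, and both within 3 bases in the NANOG order in 3 windows (0.00854%), those of NANOG, NRARP and LOC124904199. A match is a description of letters, not of binding.

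Over both lines, 5 of the 8 members were lower in the naive libraries and none was higher. SOX2, SALL4, UTF1, JARID2 and TERT fell, and POU5F1, NANOG and L1TD1 did not pass the test. Calls are at an adjusted p under 0.05 in edgeR's quasi-likelihood test over all genes, naive over primed with the line as a covariate. In that comparison 25.7% of all genes tested were called, 12.1% higher and 13.6% lower. The median log2 fold change of the 8 members was -0.88, beside -0.01 over all genes. In 7 of the 8 members the naive and primed libraries did not overlap, and POU5F1 was the exception. The share of all genes without overlap was not computed, so no conclusion is drawn from this count. For NANOG the gap was small, with naive RH5 replicate 2 at 35.4 CPM and primed RH5 at 34.6. In bulk RNA, fewer cells expressing a gene and less RNA per cell cannot be told apart.

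**Figure D1:**
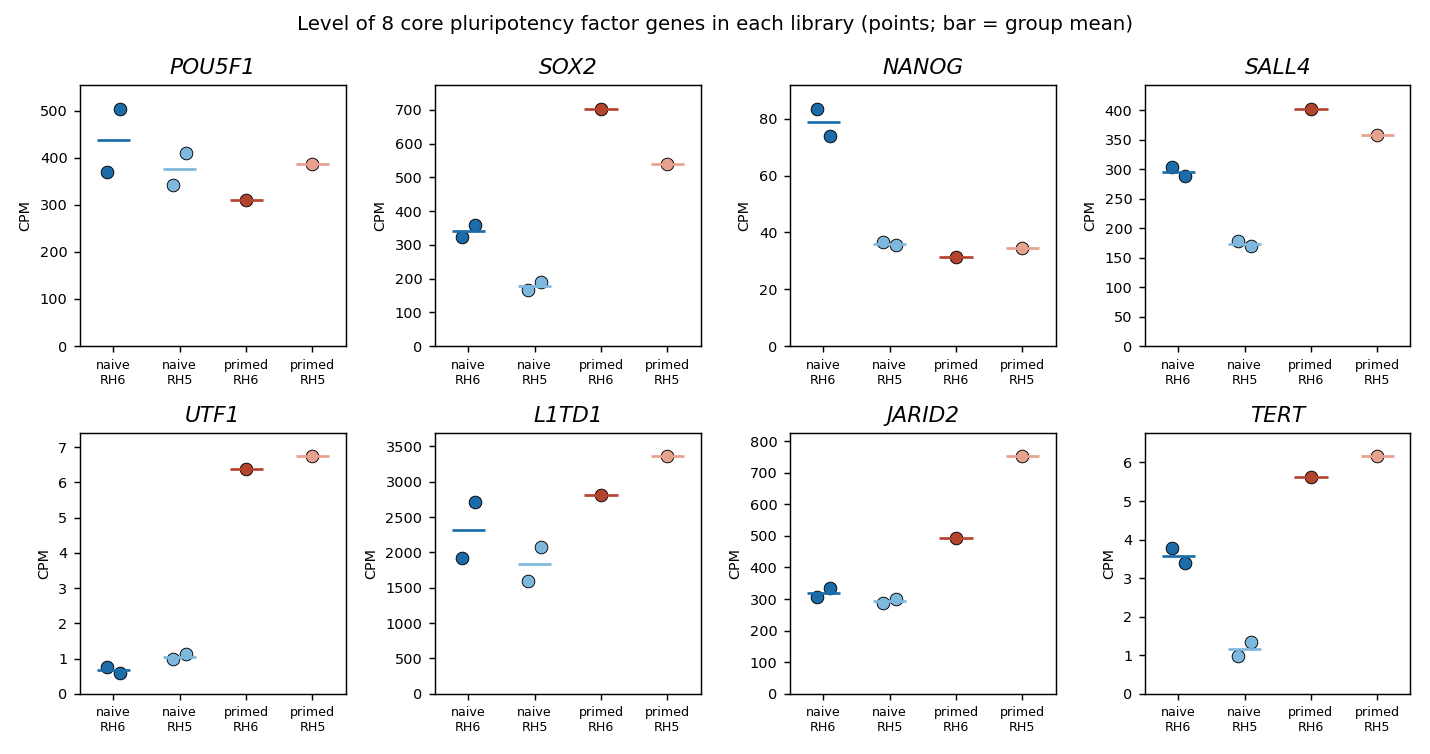
Level of each member in CPM (y axis, from 0) in the 6 libraries, 1 panel per gene; points are libraries, short bars are group means, and the x axis gives the group. POU5F1 overlaps between states, NANOG is high in naive RH6 alone, and UTF1 sits near 1 CPM in all 4 naive libraries and above 6 CPM in both primed ones.

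POU5F1, the central factor of the circuit, was at 370 and 504 CPM in naive RH6, 343 and 410 in naive RH5, 310 in primed RH6 and 388 in primed RH5. The primed RH5 value lay inside the naive range, and the naive RH6 duplicates differed from each other by more than the state means did. Naive libraries averaged 407 ± 70.6 CPM (SD, n = 4) against 349 in the primed ones. The log2 fold change was 0.22 ± 0.18 (SE), with an adjusted p of 0.429 in edgeR's quasi-likelihood test. The sign rested on 1 library: without primed RH6 it was -0.04, and without primed RH5 it was 0.53, with an adjusted p of 0.0456 in edgeR. The table listed POU5F1 under 7 identifiers, of which 6 were at 0 in every library, and the values are those of ENSG00000204531.

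SOX2, the partner of POU5F1 on DNA, was at 323 and 359 CPM in naive RH6 and 166 and 191 in naive RH5, against 703 in primed RH6 and 539 in primed RH5. Every naive library was below both primed ones, and the RH5 naive libraries were the lowest. The means were 260 ± 95.4 CPM (SD, n = 4) and 621 CPM. On the log2 scale the change was -1.33 ± 0.15 (SE), 2.51-fold lower in the naive libraries, with an adjusted p of 0.0012 in edgeR. SOX2 kept this call when any 1 library was left out.

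NANOG, the homeodomain factor of the circuit, was at 83.6 and 74.1 CPM in naive RH6 and 36.6 and 35.4 in naive RH5, against 31.5 in primed RH6 and 34.6 in primed RH5. The naive RH6 libraries stood apart, and the other 4 libraries lay close together, with both naive RH5 values just above the primed ones. Over both lines the log2 fold change was 0.65 ± 0.27 (SE), with an adjusted p of 0.124 in edgeR. Without primed RH5 it was 1.35 (adjusted p 2.27e-05 in edgeR), and without primed RH6 it was 0.06.

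SALL4 was at 303 and 288 CPM in naive RH6 and 178 and 170 in naive RH5, against 403 in primed RH6 and 358 in primed RH5. The states did not overlap, and as with SOX2 the naive RH5 libraries were lowest. The log2 fold change over both lines was -0.75 ± 0.14 (SE), with an adjusted p of 0.00979 in edgeR. Without primed RH5 the fall was smaller, at -0.42, and the call stayed (adjusted p 0.0126 in edgeR). The call was lost without the line term (adjusted p 0.104 in edgeR).

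UTF1 had the fewest naive counts of the members in all, with 11, 8, 14 and 15 counts in naive RH6 replicates 1 and 2 and naive RH5 replicates 1 and 2, against 95 and 93 in primed RH6 and RH5. These are 0.771, 0.589, 0.990 and 1.12 CPM against 6.37 and 6.74. The exact Poisson intervals at 95% reached at most 24.7 counts in a naive library and went down to 75.1 counts in a primed one, covering counting error only. UTF1 therefore separated the states beyond counting error in either line. Its log2 fold change of -2.93 ± 0.27 (SE) was the largest of the members in size, 7.61-fold lower in the naive libraries, with an adjusted p of 0.000605 in edgeR.

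L1TD1 was at 1917 and 2721 CPM in naive RH6 and 1590 and 2081 in naive RH5, against 2820 in primed RH6 and 3360 in primed RH5. The states did not overlap, but naive RH6 replicate 2 lay close to primed RH6. Over both lines the change was -0.59 ± 0.21 (SE), with an adjusted p of 0.0811 in edgeR. DESeq2 called it, at -0.58 (adjusted p 0.0393 in DESeq2), as did edgeR with no low-count filter, at -0.57 (adjusted p 0.00561 in edgeR). It was called without naive RH6 replicate 2, at -0.74 (adjusted p 0.0468 in edgeR), and without primed RH6, at -0.86 (0.00662).

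JARID2 was at 307 and 334 CPM in naive RH6 and 288 and 301 in naive RH5, against 494 in primed RH6 and 752 in primed RH5. Its 4 naive values were close, at 307 ± 19.1 CPM (SD, n = 4), and the spread lay between the primed libraries. Over both lines its log2 fold change was -1.0 ± 0.16 (SE), with an adjusted p of 0.0056 in edgeR. It was -0.60 without primed RH5 and -1.34 without primed RH6, called both times, and lost its call with the duplicates of each line summed (adjusted p 0.0804 in edgeR).

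TERT had 54 and 46 counts in naive RH6 and 14 and 18 in naive RH5, against 84 in primed RH6 and 85 in primed RH5. In CPM these were 3.79, 3.39, 0.990 and 1.34 against 5.64 and 6.16, so that naive RH5 was lowest and the primed libraries were close. The log2 fold change over both lines was -1.51 ± 0.40 (SE), with an adjusted p of 0.0326 in edgeR. This call was lost when any 1 of the 4 naive libraries was left out (adjusted p 0.0533 to 0.0964 in edgeR) and without primed RH5 (-0.62, 0.127). Without primed RH6 it was -2.39.

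Within RH6, 5 members were called, NANOG higher and SOX2, SALL4, UTF1 and JARID2 lower, where 33.6% of all genes were called, 16.4% higher and 17.2% lower. Within RH5, 6 members were called, all lower: SOX2, SALL4, UTF1, L1TD1, JARID2 and TERT, where 33.5% of all genes were called and 17% called lower. The median of the members was -0.54 in RH6 and -1.20 in RH5. Each line has 1 primed library, which was assumed to vary like the naive duplicates. These comparisons use the same libraries as the one over both lines and are no independent support for it.

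**Figure D2:**
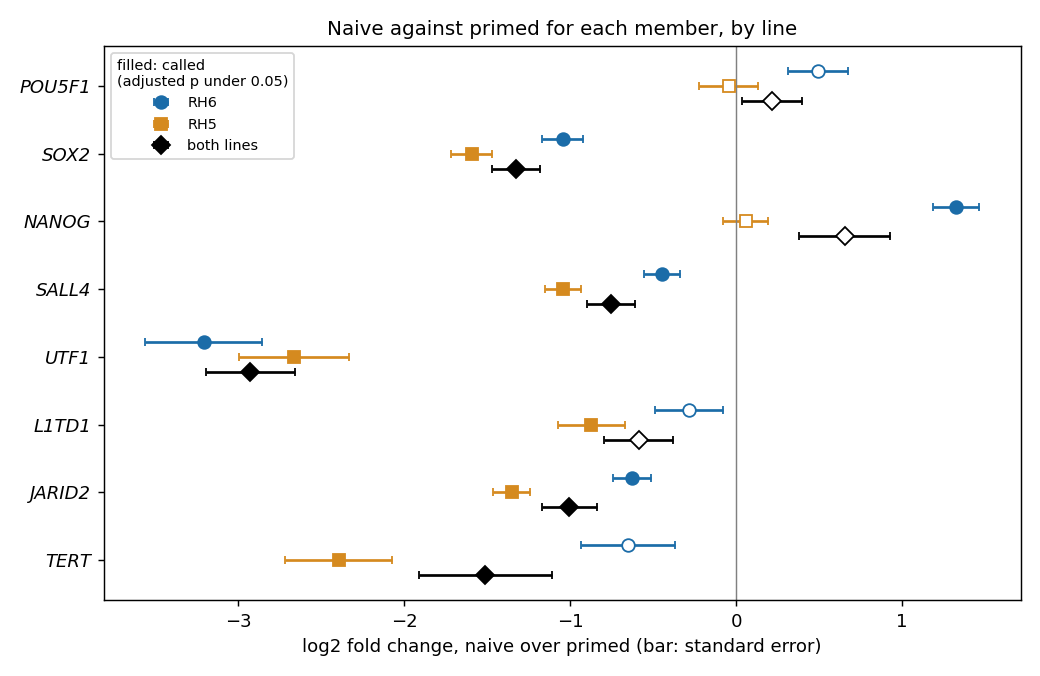
Log2 fold change of each member, naive over primed (x axis), in RH6 (circles), RH5 (squares) and both lines (diamonds); bars are standard errors and filled symbols were called. The RH6 symbol lies to the right of the RH5 symbol for every member but UTF1.

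The state difference itself differed between the lines in 4 members, NANOG, SALL4, JARID2 and TERT, where 12% of all genes were called in this test. All 4 had the more positive value in RH6, a direction in which 5.86% of all genes were called. NANOG had a log2 fold change of 1.33 ± 0.14 (SE) in RH6 and 0.06 ± 0.14 in RH5, a difference of 1.27 ± 0.19 with an adjusted p of 0.00218 in edgeR. TERT had -0.65 ± 0.28 in RH6, not called, and -2.39 ± 0.32 in RH5, a difference of 1.74 ± 0.44 with an adjusted p of 0.0288 in edgeR. JARID2 fell by 0.63 on the log2 scale in RH6 and by 1.35 in RH5, a difference of 0.73 ± 0.16 with an adjusted p of 0.0167 in edgeR. SALL4 fell by 0.45 on the log2 scale in RH6 and by 1.04 in RH5, a difference of 0.59 ± 0.16 with an adjusted p of 0.0362 in edgeR. SALL4 lost its call when either naive RH5 library was left out (adjusted p 0.0528 without replicate 1 and 0.115 without replicate 2 in edgeR), and TERT lost it without naive RH5 replicate 1 (0.0529). DESeq2 did not call the TERT difference (1.76, adjusted p 0.242). The number of members called was 7 without naive RH6 replicate 1 and 2 without naive RH5 replicate 1.

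For the other 4 members the difference between lines did not pass the test, which does not show that the lines were alike. It was 0.54 ± 0.25 (SE) for POU5F1, 0.55 ± 0.18 for SOX2, 0.59 ± 0.29 for L1TD1 and -0.54 ± 0.52 for UTF1, with adjusted p of 0.205, 0.0804, 0.234 and 0.554 in edgeR. POU5F1 had 0.49 in RH6 (adjusted p 0.0594 in edgeR) and -0.04 in RH5 (0.879). The RH6 value was called without naive RH6 replicate 1, at 0.70 (adjusted p 0.000188 in edgeR), and without either naive RH5 library (0.00995 and 0.00655), but was 0.26 without naive RH6 replicate 2 (0.177). The POU5F1 value in RH6 was also called by DESeq2, at 0.51, and by edgeR with no low-count filter, at 0.52. SOX2 fell by 1.05 on the log2 scale in RH6 and by 1.59 in RH5, and UTF1 had -3.21 and -2.67. L1TD1 had -0.28 in RH6 (adjusted p 0.322 in edgeR) and -0.87 in RH5 (0.00749). The RH6 value was -0.55 without naive RH6 replicate 2 (adjusted p 0.0148 in edgeR) and -0.055 without replicate 1 (0.823), and DESeq2 did not call the RH5 value (0.0882).

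Among the naive libraries alone, 4 members were higher in RH6 than in RH5, where 25.5% of all genes were called. The log2 difference was 1.62 ± 0.30 (SE) for TERT, 1.13 ± 0.11 for NANOG, 0.93 ± 0.11 for SOX2 and 0.77 ± 0.09 for SALL4. These 4 genes gave adjusted p of 0.00306, 5.65e-05, 0.000161 and 0.000224 in edgeR, and in each both RH6 libraries were above both RH5 libraries. JARID2 differed by 0.12 ± 0.09 and POU5F1 by 0.22 ± 0.14, neither called. Between the primed libraries, JARID2 alone was called, lower in RH6 by -0.60 ± 0.13 (adjusted p 0.0342 in edgeR), where 3.83% of all genes were called. Without naive RH6 replicate 1, POU5F1 (0.42) and L1TD1 (0.56) were called between the naive lines as well. Line and passage number cannot be told apart in either comparison, and the primed one sets 1 library against 1.

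Dividing by POU5F1 in the same library gives the balance of the circuit without the library total. There were 0.872 and 0.711 SOX2 reads per POU5F1 read in naive RH6 and 0.484 and 0.466 in naive RH5, against 2.27 in primed RH6 and 1.39 in primed RH5. SOX2 thus had fewer reads than POU5F1 in each naive library and more in each primed one. L1TD1 gave 5.18, 5.39, 4.63 and 5.08 reads per POU5F1 read in the naive libraries against 9.09 and 8.66. The naive L1TD1 ratios lay closer together than the naive L1TD1 levels, and the states were wide apart. JARID2 gave 0.661 to 0.840 in the naive libraries against 1.59 and 1.94, and SALL4 0.414 to 0.818 against 1.30 and 0.923. NANOG gave 0.226 and 0.147 in naive RH6 and 0.107 and 0.0864 in naive RH5, against 0.101 and 0.0893, so that naive RH5 overlapped the primed libraries. UTF1 gave 0.00117 to 0.00289 against 0.0205 and 0.0174, and TERT 0.00289 to 0.0102 against 0.0182 and 0.0159, both without overlap. Read ratios between genes depend on gene length, so only their change between libraries is of use, and no test was run on them.

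**Figure D3:**
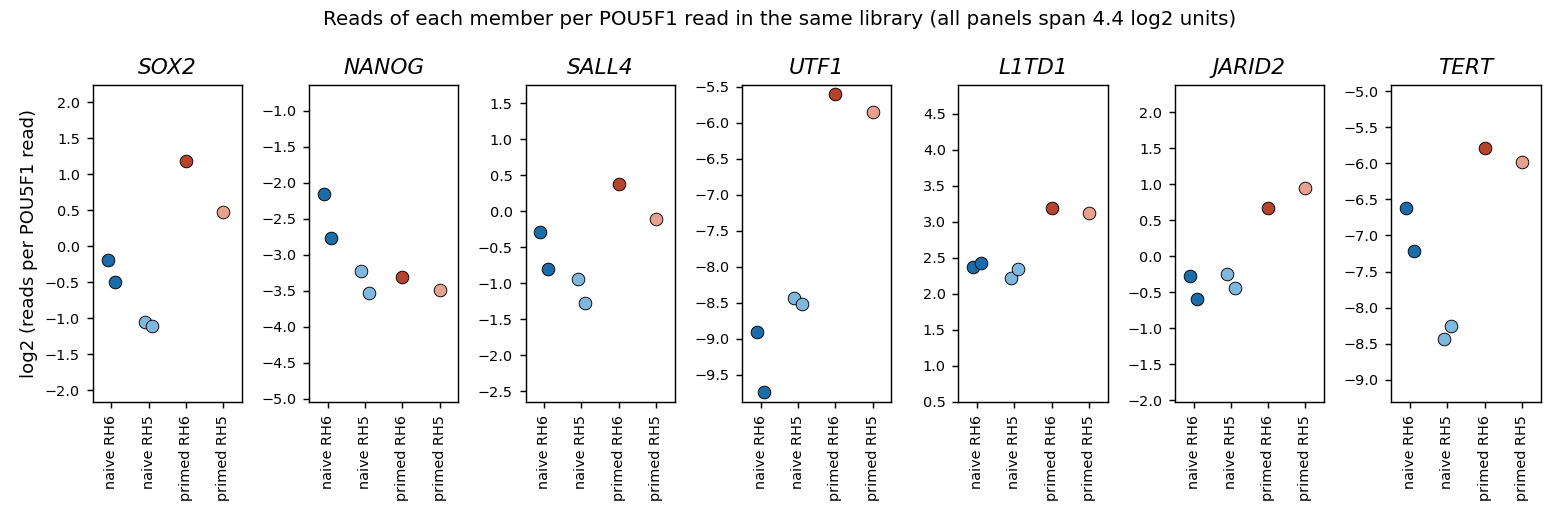
Reads of each of the other 7 members per POU5F1 read, on a log2 scale (y axis, 4.4 log2 units in each panel), by group; each point is 1 library. Naive points lie below primed points for SOX2, SALL4, UTF1, L1TD1, JARID2 and TERT, and NANOG is highest in naive RH6.

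Some NANOG reads may be shared with near-identical copies, since how the authors' counting treated reads that map to several places is not given in the sources used here. NANOGP8, a processed copy of NANOG, had 621 and 781 counts in naive RH6, 290 and 380 in naive RH5, 472 in primed RH6 and 258 in primed RH5. NANOG itself had 1192, 1007, 518, 474, 469 and 478 counts in the same order. NANOG made up 65.7, 56.3, 64.1 and 55.5% of NANOG and NANOGP8 together in the naive libraries and 49.8 and 64.9% in primed RH6 and RH5. The share was lowest in primed RH6 and overlapped between the states. NANOGP1, the tandem copy beside NANOG, had 136, 122, 62 and 52 counts in the naive libraries against 45 and 49, highest in naive RH6 as NANOG was. NANOGP1 differed between states by 1.61 ± 0.26 (SE) in RH6 and 0.22 ± 0.27 in RH5, and the difference of 1.39 passed the test (adjusted p 0.0416 in edgeR). NANOGP8 had 0.67 ± 0.21 in RH6 (adjusted p 0.034 in edgeR) and 0.39 ± 0.23 in RH5, not called. With the reads of 5 copies added to NANOG, an alternative chosen after the data were seen, the NANOG difference between the lines was 0.89 ± 0.17 (adjusted p 0.00814 in edgeR).

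**Figure D4:**
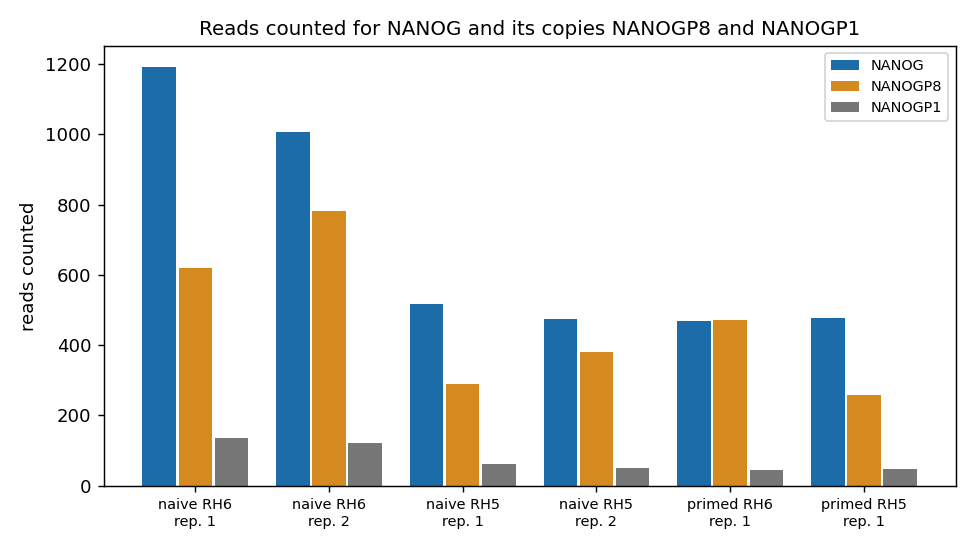
Reads counted for NANOG, NANOGP8 and NANOGP1 (y axis, from 0) in each of the 6 libraries (x axis). All 3 are higher in the naive RH6 libraries than in the naive RH5 ones, and NANOGP8 is level with NANOG in primed RH6, at 472 and 469 counts.

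Reads from a place where another gene overlaps a member can be assigned to either gene or to neither. The strand setting of the counting is not given, so reads of JARID2 and its antisense partner JARID2-AS1 cannot be told apart where they overlap. JARID2-AS1 had 13 to 38 counts in a library and JARID2 4027 to 10379. SOX2-OT, the transcript that SOX2 lies within, had 68 and 52 counts in naive RH6, 98 and 98 in naive RH5, 349 in primed RH6 and 125 in primed RH5. It was thus high in primed RH6, and its log2 fold change was -2.44 in RH6 and -0.35 in RH5, a difference of -2.10 (adjusted p 0.00157 in edgeR). SOX2 itself had -1.05 in RH6 and -1.59 in RH5, the opposite order. Over both lines SOX2-OT was called (adjusted p 0.0424 in edgeR) but not without any 1 of the naive libraries (0.0615 to 0.149) or primed RH6 (-0.34, 0.279). VENTX, the homeobox gene beside UTF1, fell by 1.11 ± 0.19 (SE) on the log2 scale over both lines (adjusted p 0.00681 in edgeR). TCF19, beside POU5F1, had 0.46 ± 0.15 (adjusted p 0.0568 in edgeR), and JARID2-AS1 had -0.93 ± 0.39 (0.125). The POU5F1 copies POU5F1B, POU5F1P3 and POU5F1P4 had 0.12, 0.08 and 0.38, none called, and adding the reads of the copies moved POU5F1 to 0.21. NANOGP5 had 0.06, and NANOGP2, with 38 counts in all, was not tested.

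For each member called over both lines or between the lines, up to 3 of the most similar of all tested genes are given by the root mean square difference of log2 CPM, centred on its mean, over the 6 libraries. They were FAM124A (0.0874) and PLEKHG4B (0.0937) for SOX2, and C21orf2 (0.0431), CAMKK2 (0.0926) and COL26A1 (0.102) for NANOG. They were ZIK1 (0.0581), MARC1 (0.0680) and NBEAL2 (0.0727) for SALL4, and FAM131B (0.0988), NPTXR (0.133) and DLGAP3 (0.137) for UTF1. They were FAM101B (0.0366), TCAP (0.0588) and SCG3 (0.0772) for JARID2, and STEAP2 (0.0937), SPRY1 (0.148) and OCLN (0.178) for TERT. No member was among these nearest genes of another. Among the members, SOX2 was nearest to SALL4 (0.305) and TERT (0.306), POU5F1 to L1TD1 (0.387), and NANOG was farthest from UTF1 (1.76).

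The genes around the members moved in both directions, given here over both lines. The median of all genes was -0.01, and 12.1% of all genes rose and 13.6% fell, against which the counts in each list stand. Since a primed line has 1 library, leaving it out gives close to the value of the other line, and both lines' values are given for the regulators and targets named. Of 16 other regulators of pluripotency, 8 fell and none rose, with a median of -0.54. FOXD3, a forkhead factor, fell by 3.58 ± 0.32 (SE) on the log2 scale, with -2.87 in RH6 and -4.29 in RH5. MYCN, a growth-promoting factor of the MYC family, fell by 1.06 ± 0.17, with -1.43 and -0.66. ZSCAN10, a zinc finger factor, fell by 0.77 ± 0.20, with -0.27 and -1.22, and its call was lost without any 1 of the naive libraries or primed RH5. FOXD3 and MYCN were called lower within each line as well.

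Of 21 genes known as targets of POU5F1, SOX2 and NANOG, 4 rose and 8 fell, with a median of -0.27. GDF3, a TGFβ family ligand, rose by 3.46 ± 0.54 (SE) on the log2 scale, with 4.93 in RH6 and 2.42 in RH5. LEFTY1, a secreted inhibitor of NODAL, rose by 2.47 ± 0.36, with 3.43 and 1.78, and FGF4, a growth factor, by 3.02 ± 0.47, with 2.23 and 4.09. HESX1, a homeobox factor, fell by 4.34 ± 0.25, with -4.54 and -4.11. USP44, a deubiquitinase, fell by 3.06 ± 0.10, with -2.92 and -3.20, and TERF1, a telomere-binding protein, by 2.91 ± 0.19, with -2.45 and -3.32. HESX1, USP44 and TERF1 were each low in the naive libraries of both lines.

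The calls in the complexes that the members work in stand beside 25.7% called over all genes. Of 12 PRC2 subunits, the partners of JARID2, 2 fell and none rose, with a median of -0.18. These were the catalytic subunit EZH1, at -0.60 ± 0.17 (SE), and the accessory subunit MTF2, at -0.48 ± 0.10. The core subunits EZH2, EED and SUZ12, named for their role after their values were seen, had 0.33, 0.21 and -0.17, none called. Of 13 NuRD subunits, the partners of SALL4 (median -0.11), MTA2 rose by 0.34 ± 0.10 while MTA3 fell by 1.1 ± 0.12 and GATAD2B by 0.48 ± 0.13 on the log2 scale. Of 14 telomerase and shelterin genes, the partners of TERT (median 0.03), TERF2IP rose by 0.65 ± 0.13 and TERF1, already given, fell. TERC, the RNA template of telomerase, and DKC1, also named after their values were seen, had -0.13 and 0.40, neither called. The calls of EZH1, MTF2, MTA2 and GATAD2B were each lost when 1 library was left out, with EZH1 at -0.39 and GATAD2B at -0.23 without primed RH6, and those of MTA3, TERF2IP and TERF1 were not.

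Among the families of the members, 4 of 8 tested POU genes fell and 2 rose, where 13.6% of all genes fell and 12.1% rose. POU2F3 fell by 3.60 ± 0.39 (SE), POU3F1 by 2.42 ± 0.48 and POU2F2 by 1.95 ± 0.28 on the log2 scale, while POU6F1 rose by 1.16 ± 0.29. Of 16 tested SOX genes 5 fell, led by SOX21 at -5.04 ± 0.82, SOX8 at -2.83 ± 0.41 and SOX10 at -2.40 ± 0.43. SOX21 went from 374 CPM in primed RH6 and 103 in primed RH5 to 8.99 ± 6.98 CPM (SD, n = 4) in the naive libraries, with -6.82 in RH6 and -2.81 in RH5. SALL2 fell by 1.47 ± 0.12 and SALL3 by 0.56 ± 0.15, and SALL1 had -1.53, not called. The calls of POU3F1, POU6F1 and SALL3 were each lost when 1 library was left out. SALL3 had -0.20 without primed RH5, POU3F1 had -1.14 without primed RH6 and -3.51 without primed RH5, and POU6F1 had 0.65 and 1.80. SOX10 had -1.35 without primed RH6, still called.

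**Figure D5:**
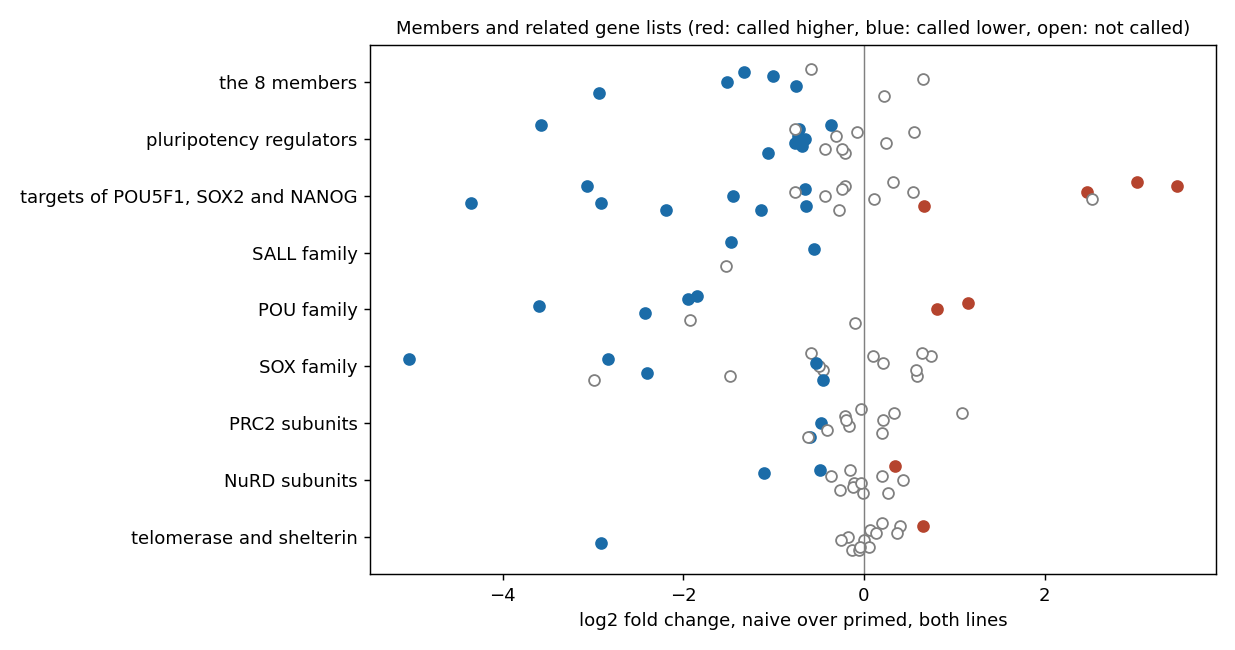
Log2 fold change over both lines (x axis) of the 8 members and of each tested gene of 8 related lists (rows); red points were called higher, blue points lower and open points were not called. Most PRC2, NuRD and telomere points lie near 0, while the POU and target lists spread to both sides. The SOX list reaches from -5.04 to 0.74, with 0 genes called higher.

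Markers of other cell types also differed between the groups, and their part in the members' differences was not tested. Counts are of tested markers over both lines, where 12.1% of all genes rose and 13.6% fell. Of 10 fibroblast genes, 6 rose and 1 fell. Their summed level was 542 to 1117 CPM in the naive libraries against 314 and 299 in the primed ones. The fibroblast sum was 1117 and 913 CPM in naive RH6 and 542 and 588 CPM in naive RH5. DCN was at 0 in naive RH6 replicate 2. The cells were grown on mouse embryonic fibroblasts, and whether mouse reads were counted under these human genes was not tested. Of 8 trophectoderm genes, 4 rose and 1 fell, with sums of 231 to 298 CPM against 119 and 73.4. TFAP2C led these sums in every library, at 109 to 132 CPM in the naive ones against 55.9 and 36.0. It is also on the germ cell list, whose sums it led in the naive libraries. VGLL1 was at 0 in both naive RH6 libraries and primed RH6, ELF5 in both primed libraries, and CDX2 in primed RH6. Of 10 mesendoderm and endoderm genes, 2 rose and 1 fell, with 311 to 395 CPM in the naive libraries, 48.4 in primed RH6 and 302 in primed RH5. In RH6 alone 9 of these 10 rose and 1 fell, where 16.4% of all genes rose. In RH5 alone 4 of the 10 rose and 5 fell, with a median log2 fold change of -0.30. The state difference was called as more positive in RH6 than in RH5 for 8 of the 10. Of 11 neural genes, 6 fell and none rose, while the sums of 715 to 1158 CPM against 997 and 723 overlapped and were led by NES. SIX6 was at 0 in all 4 naive libraries. Of 5 germ cell genes, 2 rose and 2 fell, with sums of 184 to 230 CPM against 184 and 147, and DAZL was at 0 in 3 of the 4 naive libraries.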

How the data were processed

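Bulk RNA-seq of 6 libraries was used. Per the labels' protocols, total RNA entered a stranded library kit and paired reads came from a NextSeq500, although the molecule field says polyA RNA. Tools named by the submitters' processing notes, in no order, are STAR 2.4.0a, featureCounts 1.4.5-p1 (Subread), FastQC and DESeq2, with GRCh37.p5 and hg19 as builds. The annotation was not given in the sources used here, nor was the strand setting. What the authors deposited are raw read counts for each gene, and all columns were mapped to samples by name.

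The test was edgeR's quasi-likelihood F-test (edgeR 4.0.16, R 4.3.3), two-sided, with TMM factors, filterByExpr by state (minimum count 10, minimum total 15) and Benjamini-Hochberg adjustment over all 19434 genes tested, called at an adjusted p under 0.05. Both lines were fitted with the line as a covariate (3 residual degrees of freedom, coefficient of variation 0.189). Comparisons by line were contrasts between group means fitted together (2 residual degrees of freedom, 0.0964), whose spread comes from the naive duplicates. A standard error is the log2 fold change divided by the square root of F. The pipeline was tested on simulated data with 200 changed genes. For similarity between genes, a prior count of 2 entered log2 CPM. DESeq2 1.42.0, limma-voom 3.58.1, other factors, no filter, each library left out, no line term, summed duplicates and a replicate block were the alternatives.

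The members and gene lists were chosen with earlier results of these data known. Genes named beside the members were, per list, the 3 called genes with the largest rise and the 3 with the largest fall, copies and overlapping genes with 20 or more counts, and the 3 genes most similar to each called member. Of the genes this rule selects, 2 are not reported here. With 4 against 2 libraries an exact permutation test of 1 gene cannot go below a two-sided p of 0.133, so none was run.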

Additional observations from a re-analysis of the deposited data

Results flagged for a closer look

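By edgeR's quasi-likelihood test of the difference itself, the state difference of 4 members was not the same in the 2 lines. Calls were at an adjusted p under 0.05, where 12% of all genes were called and 5.86% were called as more positive in RH6. The log2 fold change, naive over primed, in RH6 minus that in RH5 was 1.27 for NANOG, 0.59 for SALL4, 0.73 for JARID2 and 1.74 for TERT. The calls of SALL4 and TERT were lost in some of the alternatives, as given above. For NANOG both naive RH6 libraries were above every other library, and for JARID2 primed RH5 was the highest library. For SALL4 and TERT both naive RH5 libraries were the lowest. The level of each of the 8 members over the 4 naive libraries was also checked for a library far from the others, and none was found. Since the 4 libraries pool 2 lines that differed in several members, this check could hardly find one, and no conclusion is drawn from it.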

How the results depend on the processing

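The count of members called over both lines was 5, and 4 to 6 with 1 library left out, 3 with no line term and 2 with the duplicates of each line summed. The count for the difference between the lines was 4, and 7 with no low-count filter and 2 to 7 with 1 naive library left out. A primed library could not be left out there, being the only one of its group, so dependence on it was not tested. The cause was not tested. The number of all genes called also moved between the settings, so no conclusion about the members is drawn from changes in their count. With summed duplicates SALL4, JARID2 and TERT lost their calls over both lines (adjusted p 0.121, 0.0804 and 0.189 in edgeR). DESeq2 called 6 members over both lines and 3 for the difference between the lines.

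These values changed sign, each without a call at the changed sign. NANOG in RH5 was -0.0088 with upper-quartile factors, and NANOG in primed RH6 against primed RH5 was 0.20 with the reads of copies added. With 1 library left out, POU5F1 ranged from -0.16 to 0.081 in RH5 (lowest without naive RH5 replicate 2, highest without replicate 1) and from -0.036 (without primed RH6) to 0.53 (without primed RH5) over both lines. Between the naive lines it ranged from -0.020 (without naive RH6 replicate 2) to 0.42 (without replicate 1, called). NANOGP5 over both lines was -0.014 with upper-quartile factors, -0.26 with limma-voom and -0.71 to 0.63 with 1 library left out. On leaving out 1 library POU5F1B ranged from -0.26 to 0.55 and POU5F1P3 from -0.11 to 0.32.

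The labels do not say that replicate numbers pair the libraries, and the deviations of same-numbered naive libraries correlated at 0.14 over 19434 genes in 2 pairs. With a replicate block in the 4 naive libraries, 6 members differed between the lines in place of 4, with POU5F1 (0.19) and L1TD1 (0.31) added. UTF1 had too few naive counts to be tested there. Over all genes, the calls between the naive lines ranged from 2856 to 6499 over the alternatives, against 4952 as reported. The number of all genes called with the block is not given here, so no conclusion about the members is drawn from the 6. Over all genes, 4996 were called over both lines, and 3020 without naive RH6 replicate 2, 2961 without naive RH5 replicate 1 and 1127 with summed duplicates. DESeq2 called 4036 genes in place of 6528 in RH6, 3936 in place of 6506 in RH5, 1305 in place of 2337 for the difference between the lines and 2856 in place of 4952 between the naive lines. Between the primed libraries 744 genes were called, 481 with DESeq2, 1478 with no filter and 1325 to 1633 with 1 naive library left out. The 8 to 15 counts of UTF1 and 14 to 18 of TERT in naive RH5 limit their precision.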
